A study of Mus musculus with 4 samples.

Results

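The natriuretic peptides and their receptors were taken as 5 genes: the peptide genes Nppa and Nppb and the receptor genes Npr1, Npr2 and Npr3. Members were the probes whose single gene symbol in the array platform's gene table was one of these names. This gave 5 probes of 29922, covering 4 of the 5 genes, with 1 probe each for Nppb, Npr1 and Npr2 and 2 for Npr3. Nppa, the gene of atrial natriuretic peptide, matched 0 probes under that symbol or its synonyms Anf, ANP, Pnd and CDD, and is not analysed here. Another 8902 probes carry no symbol in that table.

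Whole hearts of mouse embryos at embryonic day 9.5, of the strain C57bl/6 x129 hybrid, were pooled and profiled on 4 one-colour arrays. The control group held 2 pools labelled wild-type, and the other group held 2 pools labelled Salv CKO, in which Salvador (Sav1), a scaffold of the Hippo kinase cascade, was conditionally knocked out. The sources used here give neither the Cre driver and alleles nor the number of hearts in a pool. The comparison addressed which cardiac genes are under transcriptional control of Hippo signalling during heart formation.

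Natriuretic peptides are short ring-shaped hormones cut from precursors, and heart muscle makes the precursors encoded by Nppa and Nppb. In the embryo, Nppa and Nppb mark the working myocardium of the forming chambers, and they lie next to each other in the genome. Npr1 is the receptor for both of their peptides and makes cyclic GMP with a guanylyl cyclase domain inside the cell. Npr2 is built alike and responds best to C-type natriuretic peptide, the product of Nppc. Npr3 lacks the cyclase domain and removes peptides from the surroundings, so it is known as the clearance receptor.

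Nppb and Npr2 fell in the Salv CKO pools, each to about 56% of the control intensity, while Npr3 was 0.35 lower on the log2 scale and Npr1 was 0.11 higher without passing the test. The upstream sequences of both genes that fell are shown so that their letters can be read beside the cardiac regulators measured further on. They are the 250 bases before the transcript start in the RefSeq table (GRCm38.p6), at chr4:147985650-147985899 on the plus strand for Nppb and chr4:43631685-43631934 on the plus strand for Npr2. Capitals mark matches to the motifs named in the next paragraph.
Nppb: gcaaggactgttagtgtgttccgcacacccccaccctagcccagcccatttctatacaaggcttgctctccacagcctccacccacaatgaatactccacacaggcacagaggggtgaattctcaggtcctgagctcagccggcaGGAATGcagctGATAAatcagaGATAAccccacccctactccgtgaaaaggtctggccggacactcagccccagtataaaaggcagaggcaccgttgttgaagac
Npr2: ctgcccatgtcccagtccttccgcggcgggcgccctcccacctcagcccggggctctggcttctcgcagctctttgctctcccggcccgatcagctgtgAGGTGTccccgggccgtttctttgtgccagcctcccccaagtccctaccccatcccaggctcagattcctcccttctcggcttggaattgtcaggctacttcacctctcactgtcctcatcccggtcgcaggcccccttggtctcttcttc

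Both strands were searched for GATAA, the core bound by GATA factors, for GGAATG, the M-CAT element bound by TEAD factors, for TNAAGTG of NKX2-5, for AGGTGT of T-box factors, and for the CArG box of SRF. The Nppb window held 2 GATAA matches, which begin 94 and 83 bases before the start, and 1 GGAATG match, which begins 105 bases before it, and none of the matches overlap. Of 32851 windows of the same length, 22.6% hold at least 1 GATAA and 12.6% at least 1 GGAATG. The share of windows with 2 GATAA, or with both motifs, was not counted. The Npr2 window held 1 AGGTGT, a motif present in 11.8% of windows, and 0 of the others. The Npr1 and Npr3 windows held 0 of the 5 motifs, of which TNAAGTG occurs in 10.1% of windows and the CArG box in 1.47%. These matches describe letters in the reference sequence and are not measured binding sites.

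The 4 arrays had median deposited intensities of 71.1 to 101.4 and correlated with Pearson's r of 0.937 to 0.947 on the log2 scale over all probes. Values below are log2 intensities after quantile normalisation, and differences are Salv CKO minus control with the standard error from limma, which tested 16675 genes with 1 probe each. Of these genes, 10.6% passed a limma adjusted p under 0.05, with 5.70% lower and 4.92% higher in Salv CKO. The share of calls that were higher was 46.3%, against 22.8% under median centring of the arrays and 6.88% without any scaling of the deposited values. Sav1 itself was at 9.56 and 9.30 in the controls and 9.19 and 9.13 in Salv CKO (-0.27 ± 0.13, limma adjusted p = 0.266), on a probe whose place relative to the deleted part is not known here. An exact permutation test of a single gene reaches p = 0.333 at the lowest with 2 pools per group, so every call depends on limma's pooling of the spread over genes.

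Nppb encodes B-type natriuretic peptide and was the one peptide gene among the measured members. Its deposited intensities were 10743 and 13630 in the controls and 4662 and 4988 in Salv CKO. After normalisation they were 13.27 and 13.41 in the controls and 12.47 and 12.56 in Salv CKO, on the log2 scale. Both control pools lay above both Salv CKO pools, and the gap between groups was several times the distance between pools of one group. The mean fell from 13.34 ± 0.10 (SD, n = 2) to 12.52 ± 0.06 (SD, n = 2). This difference of -0.83 ± 0.08 passed the test (limma adjusted p = 0.0110), and it left the Salv CKO level at 56.4% of control, with a 95% interval of 48.8 to 65.3%. Without any scaling of the deposited values the log2 difference was -1.33, where the median over genes above background was itself -0.44.

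Npr2, the cyclase receptor for C-type natriuretic peptide, fell as well. Deposited intensities were 915 and 990 in the controls and 381 and 413 in Salv CKO. The normalised log2 values were 9.75 and 9.62 in the controls and 8.82 and 8.89 in Salv CKO, so the groups did not overlap. The difference was -0.83 ± 0.11 (limma adjusted p = 0.0166), which is 56.2% of control with a 95% interval of 46.5 to 67.9%. As deposited it was -1.26.

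Nppc, the gene of the ligand that Npr2 prefers, was in the list of pathway genes and is named here although it was not called. It was at 7.22 and 7.11 in the controls and 7.47 and 7.32 in Salv CKO on the log2 scale. The difference of 0.23 ± 0.18 did not pass (limma adjusted p = 0.503), so a change of the ligand gene alongside its receptor was not detected.

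Npr3, the clearance receptor, is known in the embryonic heart from the endocardium. Its brighter probe was at 11.33 and 11.14 in the controls and at 10.88 and 10.89 in Salv CKO on the log2 scale. Both Salv CKO pools were below both controls and almost equal to each other. The difference of -0.35 ± 0.09 did not pass over all genes (limma adjusted p = 0.0873), although its own 95% interval, from -0.59 to -0.11, lay below 0.

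The call for Npr3 changed with the scaling of the arrays. Deposited intensities were 2806 and 2848 in the controls and 1559 and 1586 in Salv CKO. The difference was -0.58 under median centring (limma adjusted p = 0.0343) and -0.85 with the values as deposited (limma adjusted p = 0.00730). It was -0.43 with each array divided by its 75th percentile, where it did not pass (limma adjusted p = 0.0638).

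The dimmer probe of Npr3 gave a smaller difference. It was at 7.44 and 6.95 in the controls and 7.10 and 7.04 in Salv CKO on the log2 scale, so both Salv CKO pools lay between the controls. In the fit over all 29922 probes, in which 6.30% were called, its difference was -0.12 ± 0.23 (limma adjusted p = 0.814). The 95% interval of -0.73 to 0.49 includes the value of the brighter probe.

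Npr1, the receptor through which the products of Nppa and Nppb act, did not pass. Its log2 values were 7.77 and 7.60 in the controls and 7.79 and 7.81 in Salv CKO. The Salv CKO pools were just above the higher control, by less than the distance between the controls. The difference was 0.11 ± 0.16 (limma adjusted p = 0.704), and its 95% interval, from 81.6 to 144% of control, spans both a fall and a rise. With the values as deposited it turned to -0.25 (limma adjusted p = 0.469), which is still 0.19 above that scaling's median of -0.44.

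**Figure D1:**
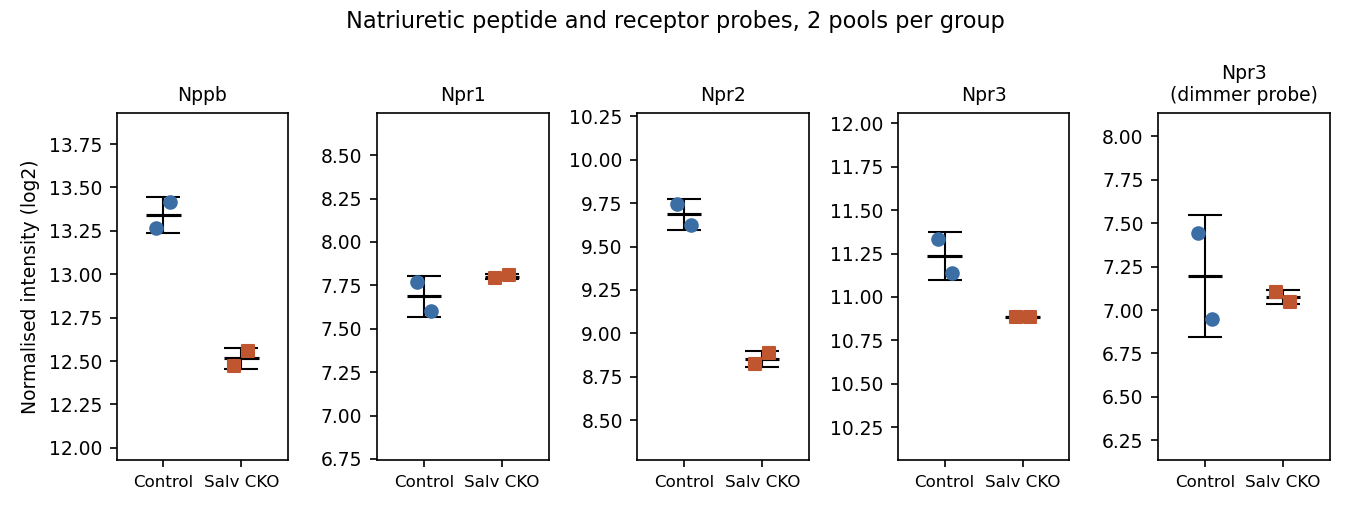
Normalised log2 intensity of each member probe in the 2 control pools (circles) and the 2 Salv CKO pools (squares), with the group mean (bar) and SD (whiskers); each panel spans 2 log2 units around its own centre, so heights can be compared within a panel and not levels between panels. Nppb and Npr2 separate widely (-0.83 each), the brighter Npr3 probe separates by 0.35, and Npr1 and the dimmer Npr3 probe do not separate beyond the distance between the controls.

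Of the 4 measured genes, 2 were called lower, beside 5.70% of all genes tested. The groups did not overlap for 4 of 4 main probes, beside 54.2% of all genes, and both Salv CKO pools were the lower ones for 3 of 4, beside 29.0%. When the 12402 genes above the background limit in every pool were ranked, 4.75% had a lower difference than Npr2 and 4.87% a lower one than Nppb. For Npr3 the share was 23.9%, and for Npr1 it was 64.2%, so Nppb and Npr2 stand in the lower tail and the other members in the body of the distribution.

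**Figure D2:**
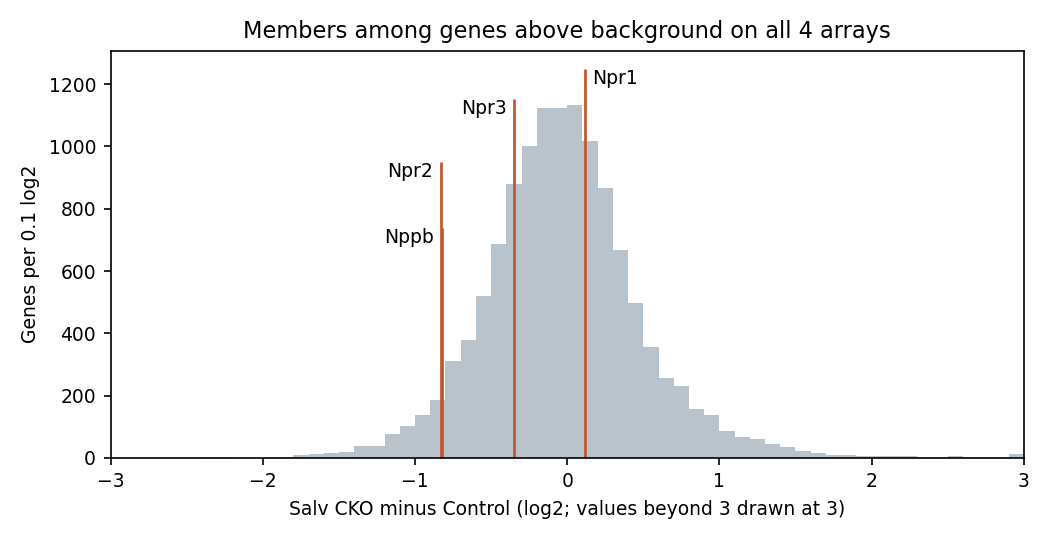
Histogram of Salv CKO minus control differences (log2, bins of 0.1) for the 12402 genes above background on all 4 arrays, with vertical lines at the main probes of the members; line heights are for legibility only. Nppb and Npr2 lie together near -0.83, Npr3 at -0.35 and Npr1 at 0.11.

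Scaling moved all members together. The median difference of genes above background was -0.04 after quantile normalisation, -0.17 with median centring, -0.03 with the 75th percentile and -0.44 as deposited. Relative to that median, Nppb was at -0.78 after quantile normalisation and at -0.88 under each of the other scalings. Npr2 was at -0.79 and -0.82 in the same order, Npr3 at -0.31 and -0.40, and Npr1 at 0.16 and 0.19. The scalings other than quantile normalisation differ by a constant per array on the log2 scale, which the subtraction removes. Their equal values were fixed in advance and are not separate evidence of stability.

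**Figure D3:**
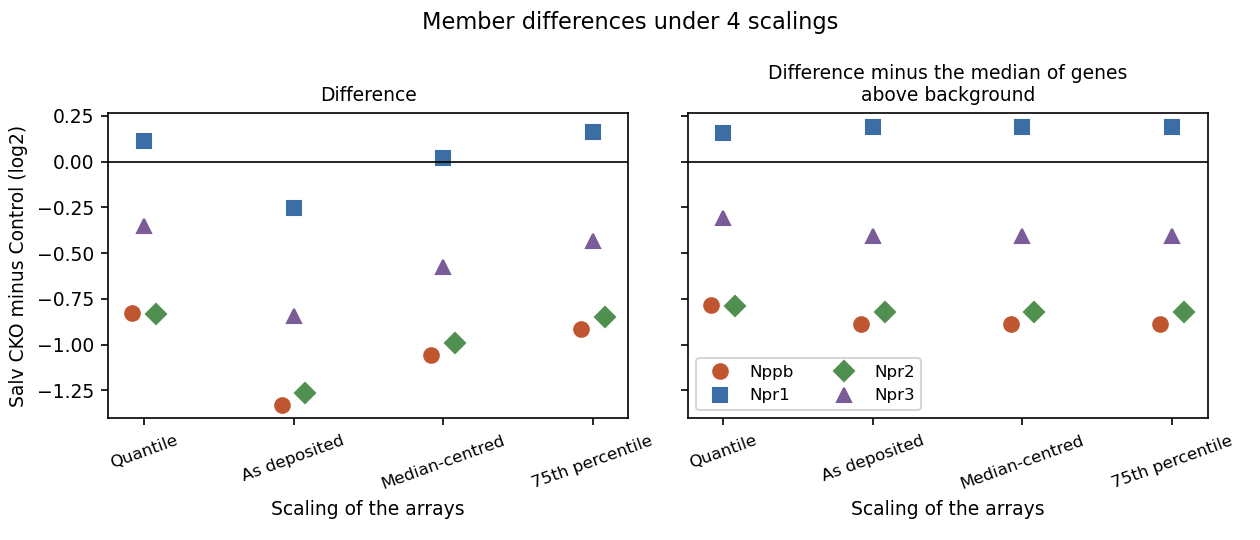
Differences of the members' main probes (Salv CKO minus control, log2) under 4 scalings of the arrays, as they are (left) and after subtracting the median difference of genes above background under the same scaling (right). On the left Npr1 changes sign with the values as deposited (-0.25). On the right Nppb, Npr2 and Npr3 lie below 0 and Npr1 above it, where all scalings but quantile normalisation are equal by construction.

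Genes of peptide processing and clearance were followed as a list of 8, all measured, which also holds the peptide genes Nppc and Ostn. Of these 2 fell and 0 rose, beside 5.70% lower and 4.92% higher over all genes. This list and those below were chosen with earlier results of these data known, so their counts only describe these arrays. The median difference of this list was -0.37, beside -0.04 over all genes. It lay midway between Furin and Mme, which was not above background on all arrays. Over the 5 list genes above background on all arrays the median was the value of Furin itself (-0.75). Of these, Nppc and Ide, the latter picked after its value was seen, were at 0.23 and 0.15. Neither median therefore stands for the whole list. Furin, a protease that cuts the precursor of B-type natriuretic peptide, was at 12.27 and 12.50 in the controls and 11.62 and 11.66 in Salv CKO on the log2 scale. It fell by 0.75 ± 0.10 on that scale (limma adjusted p = 0.0170). Pcsk6, a related protease that activates corin, went from 8.16 and 8.17 to 7.23 and 7.01, a difference of -1.04 ± 0.17 (limma adjusted p = 0.0274).

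The remaining genes of this list did not pass. Corin, the protease that cuts the precursor of atrial natriuretic peptide, picked after its value was seen, was at 6.41 and 5.81 in the controls and 5.21 and 4.50 in Salv CKO. Its difference of -1.25 ± 0.43 was larger than those of both called proteases but more variable (limma adjusted p = 0.149). Mme (neprilysin), Ostn and Pcsk5, also named after their values were seen, were at or below the background limit of log2 4 on at least 2 arrays each, so their differences are not given.

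Of 15 measured genes of cyclic GMP signalling, out of 17 listed, 2 fell and 0 rose, beside 5.70% lower and 4.92% higher over all genes. With 10.6% of all genes called either way, this count is close to the background, and the list's median was -0.33. Vasp, an actin regulator and substrate of cyclic GMP-dependent kinase, was at 13.95 in both controls and 13.14 and 13.29 in Salv CKO (-0.74 ± 0.08, limma adjusted p = 0.0116). Its dimmer probe gave 0.03 ± 0.11 and no call (limma adjusted p = 0.925). Mrvi1, the kinase substrate that restrains calcium release, fell by 1.01 ± 0.19 on the log2 scale (limma adjusted p = 0.0379).

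Gucy1a3 and Gucy1b3, subunits of the soluble guanylyl cyclase that makes cyclic GMP in response to nitric oxide, were both picked after their values were seen. They were at -0.33 ± 0.11 and -0.31 ± 0.09 without passing (limma adjusted p = 0.152 and 0.107). The 7 phosphodiesterases above background, which break down cyclic nucleotides and were also picked afterwards, were not called. Pde2a and Pde3a were at -0.02 and 0.05, and Pde1a, Pde5a, Pde9a, Pde10a and Pde1c were at -0.36, -0.40, -0.48, -0.72 and -0.81. Of these Pde5a, Pde9a and Pde1c were dim (log2 4.10 to 6.18), with standard errors of 0.43 to 0.45. The other probes of Pde1a, Pde2a and Pde3a gave 0.57 ± 0.55, 0.29 ± 0.20 and -0.06 ± 0.35 without a call. That of Pde1a was below the background limit on at least 1 array.

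Of 16 measured transcription factors that act on the natriuretic peptide genes, out of 18 listed, 3 fell and 1 rose, beside 5.70% and 4.92% of all genes. Gata4, a GATA factor of heart muscle, went from 11.39 and 11.41 to 10.25 and 10.17 on the log2 scale (-1.19 ± 0.08, limma adjusted p = 0.00661). Its dimmer probe, also above background, gave -1.11 ± 0.40 and no call (limma adjusted p = 0.205). Nkx2-5, the cardiac homeobox factor, went from 11.37 and 10.85 to 9.35 and 9.66 (-1.61 ± 0.21, limma adjusted p = 0.0168). For each of them both Salv CKO pools were below both controls, by more than the distance between pools of one group.

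Tbx2, a repressor of chamber genes including Nppa in the atrioventricular canal, fell by 0.71 ± 0.10 on the log2 scale (limma adjusted p = 0.0186). Nfatc4, a calcineurin-dependent factor, rose by 0.70 ± 0.13 (limma adjusted p = 0.0383) and was at 0.22 without a call with the values as deposited. The list's median was -0.02, close to that of all genes. The activator Mef2c, picked after its value was seen, was at -0.01. Tbx5, a T-box activator also picked afterwards, was at -0.22 on its brighter probe and -0.91 ± 0.21 on its other probe, which was above background as well, with no call for either (limma adjusted p = 0.223 and 0.0847). Tead1, a factor of the M-CAT element picked in the same way, was below the background limit on all 4 arrays.

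Chamber and trabecular genes, among which Nppa and Nppb are usually counted, gave 6 that fell and 1 that rose of 14 measured out of 16 listed, beside 5.70% and 4.92% of all genes. Their median was -0.44. Gja5, a gap junction connexin, was lower by 1.36 ± 0.13 in log2 intensity (limma adjusted p = 0.0110), while its other probe, below the background limit on at least 1 array, gave 1.83 ± 1.38 and no call. The ventricular homeobox factor Irx4 fell by 1.22 ± 0.09 and the neuregulin receptor Erbb2 by 1.18 ± 0.09 (limma adjusted p = 0.00762 and 0.00726). Cited1, a transcriptional cofactor of trabecular muscle, fell by 0.79 ± 0.16 (limma adjusted p = 0.0481), close in size to Nppb.

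The chamber gene that rose was Irx3 (0.59 ± 0.10, limma adjusted p = 0.0290), another Iroquois homeobox factor, named after its value was seen. It was not called under median centring (0.38, limma adjusted p = 0.111) or with the values as deposited (0.11, limma adjusted p = 0.650). Bmp10, a growth factor of the trabeculae, also picked afterwards, was at 0.35 ± 0.22 and did not pass (limma adjusted p = 0.395).

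**Figure D4:**
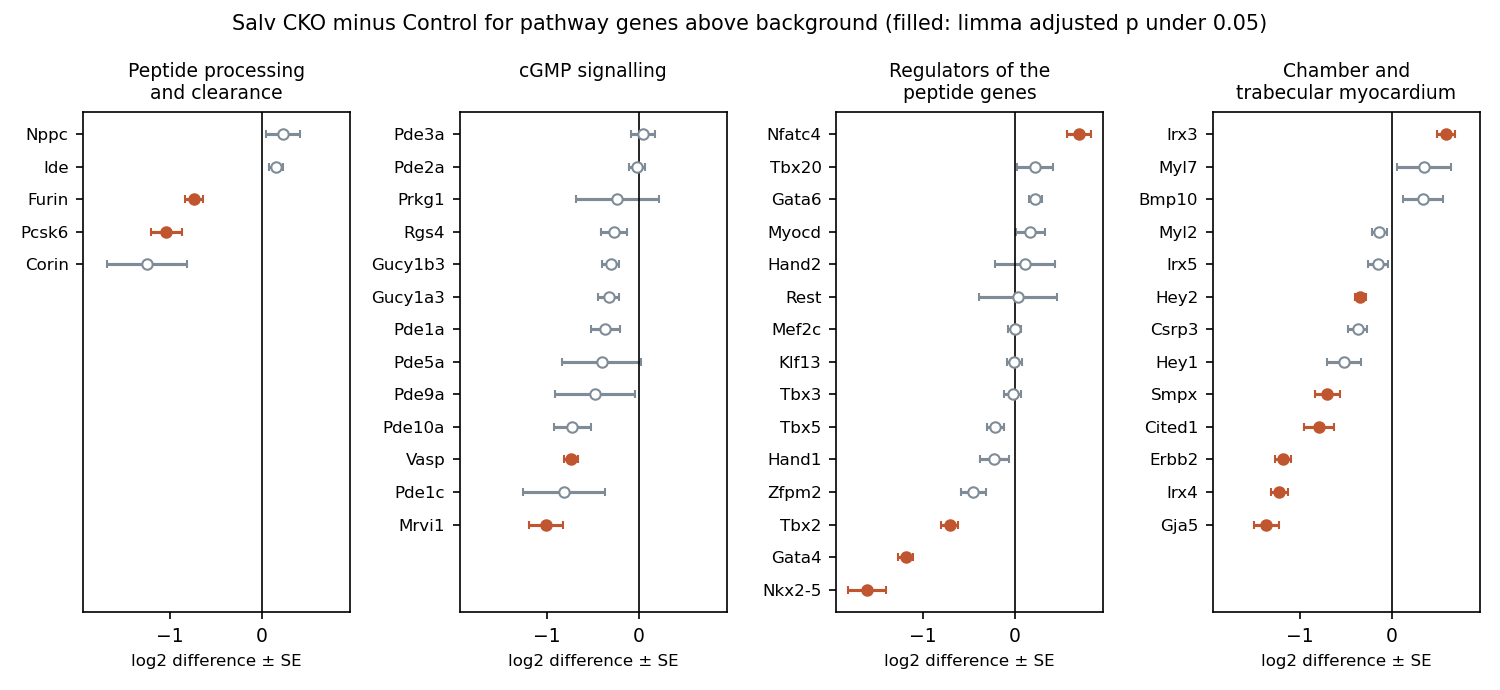
Difference Salv CKO minus control (log2, point) with its standard error (whisker) for list genes above background on all 4 arrays, 1 panel per list; filled points passed a limma adjusted p under 0.05. Most filled points lie left of 0; Nfatc4 and Irx3 are the filled points to the right.

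The cell types in the pools were read from marker lists in the same fit, in which 5.70% of all genes fell and 4.92% rose. Of 12 cardiomyocyte markers 7 fell and 0 rose, with a mean log2 level of 13.84 to 13.89 in the controls and 13.15 to 13.16 in Salv CKO. Of 9 measured endocardial and endothelial markers 5 fell and 0 rose (10.08 to 10.26 against 9.47 to 9.61), and of 6 red cell markers 2 fell and 0 rose (12.88 to 12.92 against 12.38 to 12.45). The red cell marker Hba-x was near the top of the intensity range on all arrays (15.90 to 15.95), so falls in that list can be understated. In the other direction, 4 of 9 neural markers rose and 1 fell (7.23 to 7.56 against 9.47 to 9.495, with a median difference of 0.49 that was 0.07 as deposited), 5 of 8 neural crest markers rose (6.83 to 6.95 against 8.73 to 8.84) and 4 of 8 endoderm markers rose (7.79 to 7.85 against 8.97 to 9.19). Of 6 epicardial markers 2 rose, while 3 were below background on all arrays and the mean levels overlapped (3.81 to 4.97 against 4.54 to 5.69). Among the risers, Upk3b was not called as deposited (0.10) or under median centring (0.37). Its other probe gave -0.13 ± 0.13 and no call (limma adjusted p = 0.631). Heart muscle markers were above background in all 4 pools, which are labelled whole heart. The part of these shifts in the differences of Nppb, Npr2 and Npr3 was not tested, and in pooled hearts fewer cells of a type and less RNA per cell cannot be told apart.

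Nppb fell by 0.83 on the log2 scale where the median difference of the cardiomyocyte markers was -0.67. Some of these markers were near the top of the intensity range. Myh6 and Actn2 were at 15.95 in control 1, and Actc1 was at 15.95 in control 2 and both Salv CKO pools. Falls of such genes, and so the list's count and levels, can be understated. Actc1 was at 0.05 on this probe and at -0.39 ± 0.25 on its dimmer probe, without a call (limma adjusted p = 0.450). The log2 value of Nppb minus the median of the 12 cardiomyocyte markers was -1.11 and -0.99 in the controls and -1.11 and -1.09 in Salv CKO, where only changes between arrays carry meaning. The groups overlapped, and the difference was -0.05, or -0.12 with the mean of the markers. The same quantity for Npr2 differed by -0.06, with overlapping groups. With the mean of the markers the Npr2 difference was -0.12. There both Salv CKO pools (-4.34 and -4.27) were below both controls (-4.14 and -4.22). On every array the cardiomyocyte median lay midway between Tnni1 and Tnni3, which differed by -0.89 and -0.66. It therefore rests on these genes and does not stand for the whole list. Npr2 against the median of the 9 endothelial markers differed by -0.18. It was at -0.20 and -0.10 in the controls and -0.33 and -0.34 in Salv CKO, so the groups did not overlap. On every array this endothelial median was the level of Tie1 alone. Tie1 differed by -0.65, where the median difference of the endothelial list was -0.74. With the mean of the 9 markers the Npr2 difference was -0.20.

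Npr3 went the other way against both marker lists. Minus the median of the endocardial and endothelial markers it was at 1.38 and 1.42 in the controls and 1.73 and 1.66 in Salv CKO, a difference of 0.30. That median was again the level of Tie1. Against the cardiomyocyte markers the difference was 0.43. With the mean of each list in place of its median the differences were 0.28 and 0.36. In each case both Salv CKO pools were above both controls, so Npr3 was lowered less than the middle of either list. These differences have no test beyond the exact permutation limit of p = 0.333.

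Genes whose pattern over the 4 arrays was nearest to a member were found by the Euclidean distance between log2 values centred on their own mean, among the 11026 other genes that were above background on all arrays and had no clone-like or accession-like name. For Nppb they were the neuronal protein gene Ncdn (distance 0.0323), the Notch ligand gene Dll4 (0.0337) and the lipase inhibitor gene G0s2 (0.0520), with differences of -0.82 each. For Npr2 they were Nav1 (0.0365), the calcium channel subunit gene Cacng6 (0.0394) and the adenylyl cyclase gene Adcy6 (0.0457), with differences of -0.84, -0.85 and -0.80. For Npr3 they were the kinase gene Ikbke (0.0150) and the adaptor genes Shc1 (0.0306) and Sh2b3 (0.0335). For Npr1 they were Fndc4 (0.0153), Lsm12 (0.0213) and Crebl1 (0.0257). With 4 points per gene, close matches are many, and the distance describes these arrays only.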

How the data were processed

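RNA from 4 pools of embryonic hearts was measured on one-colour Cy5 arrays, per the labels. The authors deposited linear probe intensities; the sources used here name no scanner, background method, scaling or software. Between 3.37 and 5.99% of values per array lay below 0, so a background had been subtracted. Quantile normalisation over the 4 arrays used limma 3.58.1 (R 4.3.3), and values were floored at an intensity of 1 and put on the log2 scale. A probe counted as above background over 16 (log2 4); the root mean square of values below 0 was 4.36 to 6.28.

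Gene symbols came from the platform's table of 2013, which gives 1 symbol for 21020 of 29922 probes. Each gene was represented by the probe with the highest mean over the 4 arrays. Salv CKO was tested against control by lmFit and eBayes, trend on (2.92 prior and 2 residual degrees of freedom), two-sided, with Benjamini-Hochberg adjustment over 16675 genes at 0.05; dimmer probes were tested in the same fit over all probes. The pools are described as biological replicates, and their number limits the precision. The procedure was tested on simulated data with normal noise, close to the model that limma assumes. That run checks the code and does not bear on whether the calls made here hold. The members, the gene lists and the tests were chosen with earlier results of these data known. Named were all members, up to 4 called genes above background per pathway list with the largest difference, and the 3 genes nearest in pattern to each member. For the marker lists counts are given, and single markers were named after their values were seen. Genes outside that rule are marked, apart from Nppc, named as the ligand gene of Npr2, and Sav1, the gene knocked out. Alternatives covered scaling, floor, filters, variance model, probe rule, replicate block and leaving out each array. Promoter sequences are RefSeq's (GRCm38.p6), matched by symbol for 4 of 4 measured members.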

Additional observations from a re-analysis of the deposited data

How the results depend on the processing

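Over 12 alternatives with all arrays, Nppb ranged from -1.33 to -0.83 and Npr2 from -1.26 to -0.83, both lower throughout and called in 9 (limma adjusted p = 0.000804 to 0.133 and 0.00432 to 0.130). The calls were lost with a floor of 16 (Nppb -0.83, adjusted p = 0.0558; Npr2 -0.83, 0.0524), with a floor of 64 (-0.83, 0.0557; -0.83, 0.0547) and without an intensity trend (-0.83, 0.133; -0.83, 0.130). Npr3 passed with the values as deposited (-0.85) and with median centring (-0.58), and Npr1 turned to -0.25 as deposited. Genes called numbered 3330 as deposited, 481 and 491 with floors of 16 and 64, 2676 and 2705 with dim genes filtered by background or by quartile, and 0 without the trend (3578 at an unadjusted limma p under 0.05).

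Called members of the cyclic GMP list numbered 6 as deposited, 4 with median centring, 0 with either floor (5 and 4 at an unadjusted p under 0.05) and without the trend (3), and 1 with the mean of probes or with all probes fitted together. Chamber genes numbered 4 and 3 with the floors, 4 with all probes and 0 without the trend (7 unadjusted). Peptide processing genes numbered 0 under both floors (2 unadjusted) and without the trend (3). Regulators numbered 8 as deposited, 1 under each floor and 0 without the trend (4). The causes were not tested.

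Leaving out any 1 array, with the lone pool assumed to vary like the other group, limma called 0 genes and 0 members of each list (3172 to 3438 genes at an unadjusted p under 0.05). Nppb then ranged from -0.90 to -0.77 (unadjusted p = 0.00392 to 0.0111), Npr2 from -0.88 to -0.76, Npr3 from -0.44 to -0.25 and Npr1 from 0.03 to 0.20. The labels do not say that replicate numbers pair the pools, and the deviations of same-numbered pools correlated at 0.053 over all genes and 0.17 over genes above background. With the replicate number as a block 2211 genes were called; Nppb stayed at -0.83 (adjusted p = 0.0118), Npr2 at -0.83 (0.0195), Npr3 at -0.35 (0.0669) and Npr1 at 0.11 (0.673), and none of these calls changed. Alternatives for Nppa were not run because no probe matched it. Main probes of all 4 measured members were above background on every array.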
